A study of Caenorhabditis elegans with 6 samples.

Results

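A group of 487 protein-coding genes was examined that are classed as spermatogenic, from expression in spermatogenic gonads, but belong to none of the Argonaute pathway classes ALG-3/4, CSR-1, HRDE-1, MUT-16, PRG-1 and WAGO-4 in the annotation of the deposited tables. They are 487 of the 17352 protein-coding genes, and of the 19762 genes of all kinds, with an entry for 22G-RNAs. The tables class 2351 protein-coding genes as spermatogenic, of which 1133 carry none of those 6 classes. Of these, 34 were set aside because their names place them in large families (major sperm proteins, spe genes, histones, collagens and the like), and 612 of the remaining 1099 had a mean of fewer than 10 counts over the 4 untreated libraries. The members were therefore selected on their 22G-RNA counts in both genotypes together. At that limit, *glct-6* was kept with wild-type counts of 10 and 14 and mutant counts of 11 and 5 (mean 10). ZK512.10 was left out with wild-type counts of 11 and 4 and mutant counts of 11 and 13 (mean 9.75). The spermatogenic class was the only class assigned to every one of the 487 genes.

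22G-RNAs are short antisense RNAs with a 5′ guanine that RNA-dependent RNA polymerases copy from mRNAs in *C. elegans*, and that Argonaute proteins carry to silence or license those mRNAs. In the male germ line the Argonautes ALG-3 and ALG-4 bind a class of longer 26G-RNAs, which direct the making of 22G-RNAs against many spermatogenesis mRNAs. The genes described here share the spermatogenic expression but are not among the listed targets of these Argonautes, and they encode proteins of many kinds, from transporters and channels to enzymes and transcription factors. EGGD-1 is a LOTUS domain protein that anchors P granules, RNA-rich germ granules, at the nuclear envelope.

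Small RNAs were sequenced from whole adults grown at 20 °C. Untreated libraries were made from 2 samples of a wild-type control that carries PGL-1 fused to RFP and from 2 samples of an *eggd-1* null mutant, in which the study deleted the full open reading frame. Further libraries, 1 from N2 wild-type and 1 from *eggd-1*, were made from RNA oxidized with sodium periodate, after which RNAs that lack a 3′ methyl group are poorly cloned. The labels do not say whether the *eggd-1* strain also carries the PGL-1 fusion, so the mutation and a difference in that tag cannot be told apart. In whole animals, fewer germ cells of a type and less small RNA per cell also cannot be told apart.

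The untreated libraries held from 21883625 to 31245662 genome-mapped reads, so that 1 count equalled 0.0320 to 0.0457 RPM, the deposited unit of reads relative to all genome-mapped reads, and the 3 counts that a count of 0 allows equalled 0.0960 to 0.137 RPM. These limits cover counting error only, because the reads carry no molecular identifiers and PCR copies of a molecule count again. 22G-RNAs of *eggd-1* itself were at 78.1 and 81.1 RPM in wild-type and at 0.366 and 0.469 RPM in the mutant. The summed markers of spermatogenesis also differed between the genotypes. Spermatogenic piRNAs over 3750 loci were at 6096 and 6192 RPM in wild-type against 12371 and 12736 RPM in *eggd-1*, and 26G-RNAs over 1325 ALG-3/4 class genes were at 324 and 351 RPM and at 1180 and 1048 RPM. Oogenic piRNAs over 1724 loci overlapped between the genotypes, with a fold change of 0.958 ± 0.0666 (SD, n = 2). The part of these marker differences in the results that follow was not tested.

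22G-RNAs against the spermatogenic genes outside the listed classes moved in both directions in *eggd-1*. Of the 484 genes that passed the filter on low counts, 158 (32.6%) were called higher and 70 (14.5%) lower, where a call needed a change of 2-fold or more and a p under 0.05 after Benjamini-Hochberg adjustment over all genes (quasi-likelihood test of edgeR). Over all 11737 genes tested, 9.30% were higher and 16.1% lower by the same rule. The share of higher calls was therefore above that of all genes, while the share of lower calls was close to it. At the limit of 4-fold, 32 genes (6.61%, against 2.04% of all genes) were higher and 24 (4.96%, against 4.81%) lower. Of the 484, 179 did not pass an adjusted p of 0.05 at any fold change. The median log2 fold change was 0.30, with quartiles of -0.54 and 1.24, beside -0.18 over all genes tested. TMM scaling, which centres the genes on one another, moved the median of all genes to -0.03 and that of the members to 0.45, and gave 175 higher and 62 lower members at 2-fold. DESeq2 with its own size factors moved these medians to -0.00 and 0.49 and gave 137 higher and 46 lower. The shares of all genes called with TMM scaling and DESeq2 were not counted. The members had to reach the count limit over both genotypes together, so some entered through the genotype in which they were high: 49 of the higher genes had a wild-type mean under 10 counts, and 28 of the lower genes an *eggd-1* mean under 10. Among the 377 genes at or above 10 counts in each genotype, 109 were higher and 42 lower. The shares over all genes at that limit were not computed.

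**Figure D1:**
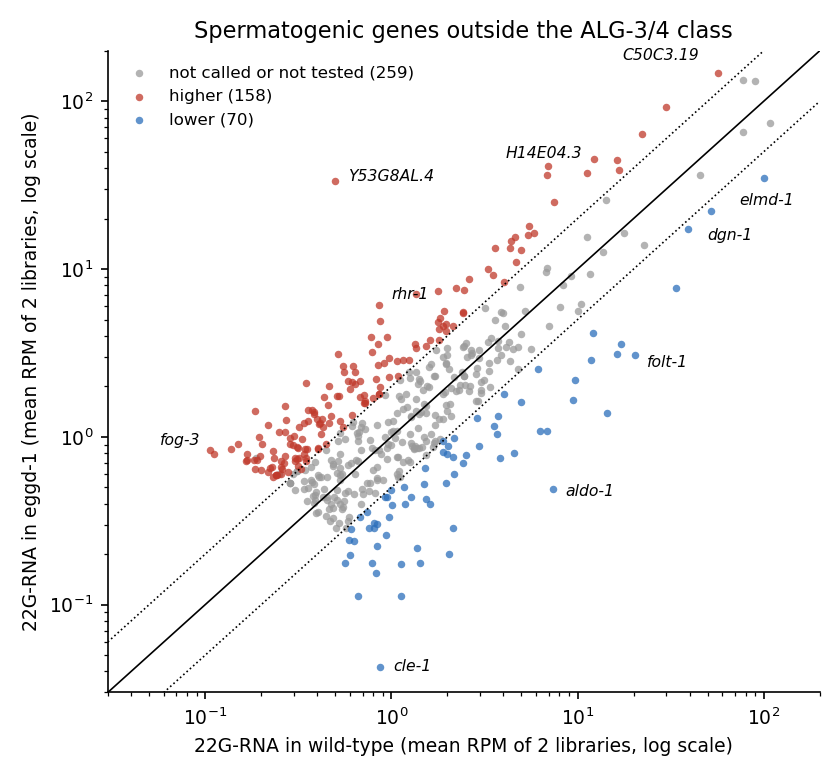
Mean 22G-RNA level of each of the 487 genes in wild-type (x axis) and *eggd-1* (y axis), in RPM on log scales; the solid line marks equal levels, the dotted lines 2-fold differences, and colours the calls at 2-fold. The 158 higher and 70 lower genes lie on both sides of the line across the whole range of levels, and Y53G8AL.4 stands farthest above it.

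The 22G-RNAs of all 487 genes together reached 1735 and 1648 RPM in wild-type and 2161 and 2087 RPM with *eggd-1* deleted. Both mutant libraries lay above both wild-type libraries, a fold change of 1.26 ± 0.0554 (SD, n = 2), while the 22G-RNAs of all genes had a fold change of 0.956 ± 0.0261. The members made up 0.424% of all wild-type 22G-RNAs and 0.557% of those in *eggd-1*. This sum hid opposite movements. The genes called higher went from 341.0 and 321.7 RPM to 1083 and 996.2 RPM, and the genes called lower from 465.7 and 444.6 RPM to 138.5 and 138.4 RPM. The genes with no call were at 928.7 and 881.3 RPM in wild-type against 939.2 and 952.7 RPM in *eggd-1*. The calls chose these first 2 sums, so they describe sizes and test nothing. For single genes, the replicates differed by a median of 0.245 (wild-type) and 0.270 (*eggd-1*) on the log2 scale, and the genotype means by a median of 0.914. In 236 of the tested genes (48.8%, against 29.4% of all genes) both *eggd-1* libraries lay above both wild-type libraries, and in 161 (33.3%, against 51.8%) they lay below.

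Levels were low. The median wild-type level was 1.01 RPM, with quartiles of 0.504 and 2.23 RPM, where the median of all genes tested was 8.43 RPM. The mean count was under 100 for 412 of the 487 genes. The 5 genes with most 22G-RNAs held 26.7% of the members' wild-type total and the top 10 held 40.2%. Higher calls were not confined to the scarce genes. Of 168 tested genes with a mean of 10 to 20 counts, 62 were higher and 23 lower. From 20 to 50 counts these were 47 and 22 of 160, and from 50 to 200 counts 30 and 15 of 110. Of 46 genes from 200 counts upward, 19 were higher and 10 lower. All genes tested were not divided by level in this way. The genes called higher started from a median of 0.521 RPM in wild-type and reached 1.67 RPM, whereas those called lower started from 1.94 RPM and reached 0.527 RPM. The count limit applied to both genotypes together, and the calls then split the genes by direction. Low starting levels among the higher genes and high ones among the lower genes are therefore favoured by the selection itself. These medians are descriptions only, and nothing about starting levels is read from them. The median length of the annotated exons was 1302 bases for the higher genes, 1478.5 for the lower and 1732.5 for those with no call.

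The 6 members with the highest wild-type levels followed no common direction. Y38F2AL.12 was at 115 and 100 RPM in wild-type against 74.9 and 73.7 RPM in *eggd-1*, less than 2-fold apart (log2 fold change -0.53). *elmd-1*, which encodes an ELMO domain protein, was at 101 and 99.5 RPM in wild-type against 34.7 and 35.3 RPM in *eggd-1*. It fell by 1.52 on the log2 scale (standard error 0.0721, adjusted p = 6.26e-18, quasi-likelihood test of edgeR, Benjamini-Hochberg), and its exons overlap 2 genes on the opposite strand. C50C3.19 changed the other way, from 58.9 and 54.3 RPM to 154 and 142 RPM, and became the most abundant of the group in *eggd-1* (log2 fold change 1.39, standard error 0.0734). K10G9.2, at 92.8 and 87.4 RPM in wild-type against 130 and 133 RPM in *eggd-1*, and C06A5.12, at 80.6 and 73.5 RPM and then 131 and 136 RPM, were above wild-type in both mutant libraries by less than 2-fold. F43E2.6 was at 76.3 and 77.9 RPM and at 64.6 and 66.8 RPM, a difference that passed the test by a small margin (log2 fold change -0.23, adjusted p = 0.00479, edgeR) and did not pass it with TMM scaling (adjusted p = 0.246) or DESeq2 (0.629). Per kilobase of exon, C06A5.12 and C50C3.19 had the highest wild-type levels of the group, at 175 and 120 RPM per kilobase, since their exons span only 441 and 471 bases.

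Where the mean count was 50 or more, the largest increase was at Y53G8AL.4 (WBcel235 chromosome III, 3249339 to 3250646), whose 22G-RNAs were scarce in wild-type. It had 0.426 and 0.576 RPM (12 and 18 counts) in wild-type and 35.1 and 31.7 RPM (768 and 743 counts) in *eggd-1*. The increase was 66.6-fold, or 6.03 on the log2 scale (standard error 0.154, adjusted p = 8.17e-25, quasi-likelihood test of edgeR, Benjamini-Hochberg). No other gene of the group rose as much. *rhr-1* (chromosome V, 5428160 to 5430431), which encodes an ammonia channel of the Rhesus family, was at 0.781 and 0.928 RPM in wild-type against 6.17 and 6.01 RPM in *eggd-1* (log2 fold change 2.82, standard error 0.203). Y48A6B.9 (chromosome III, 11033172 to 11036088) and H14E04.3 (chromosome III, 2384880 to 2386583) combined a large increase with a high final level. Y48A6B.9 went from 6.78 and 7.14 RPM to 40.3 and 41.5 RPM, and H14E04.3 from 7.27 and 6.50 RPM to 35.2 and 37.5 RPM. The chemoreceptor gene *srd-20* (chromosome V, 6055589 to 6056743) went from 1.69 and 1.04 RPM to 7.24 and 6.91 RPM, and Y39F10C.3 (chromosome II, 674416 to 674936) from 0.994 and 0.736 RPM to 5.26 and 4.52 RPM. In each of these 6 genes the lower *eggd-1* library stood several times above the higher wild-type library, and the smallest of the increases was the 5.19-fold one at *srd-20*. The choice of the largest called increases favours this separation, so it describes the genes and tests nothing.

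Where the mean count was 50 or more, the largest decrease was at *aldo-1* (chromosome III, 13563346 to 13564937), which encodes the glycolytic enzyme fructose-bisphosphate aldolase. Its 22G-RNAs were at 7.77 and 7.01 RPM in wild-type against 0.503 and 0.469 RPM in *eggd-1*, 15.2-fold lower (log2 fold change -3.91, standard error 0.225, adjusted p = 8.56e-16, quasi-likelihood test of edgeR, Benjamini-Hochberg). The folate transporter gene *folt-1* (chromosome V, 11141479 to 11143121) was among the more abundant members in wild-type, at 20.4 and 20.3 RPM, and was at 3.11 and 3.07 RPM in *eggd-1*, 6.58-fold lower. M176.4 (chromosome II, 9418365 to 9422201) was at 15.0 and 13.8 RPM in wild-type against 0.914 and 1.88 RPM in *eggd-1*, 10.3-fold lower, with mutant libraries that differ from each other (log2 fold change -3.97 without *eggd-1* replicate 2, against -3.35), and shares exon sequence with another annotated gene on its own strand, between which reads were divided. *svop-1* (chromosome III, 8882707 to 8885488), a relative of the synaptic vesicle protein SV2, was at 9.97 and 8.87 RPM and then 1.78 and 1.54 RPM. *tbc-8* (chromosome III, 10364956 to 10373234), which encodes a Rab GTPase-activating protein, was at 6.81 and 5.70 RPM and then 1.3 and 0.853 RPM, and F11A5.18 (chromosome V, 16202918 to 16204862) at 7.10 and 6.67 RPM and then 1.23 and 0.938 RPM. The genotypes did not overlap at any of these 6 genes. The choice of the largest called decreases favours this, so it describes the genes and tests nothing.

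**Figure D2:**
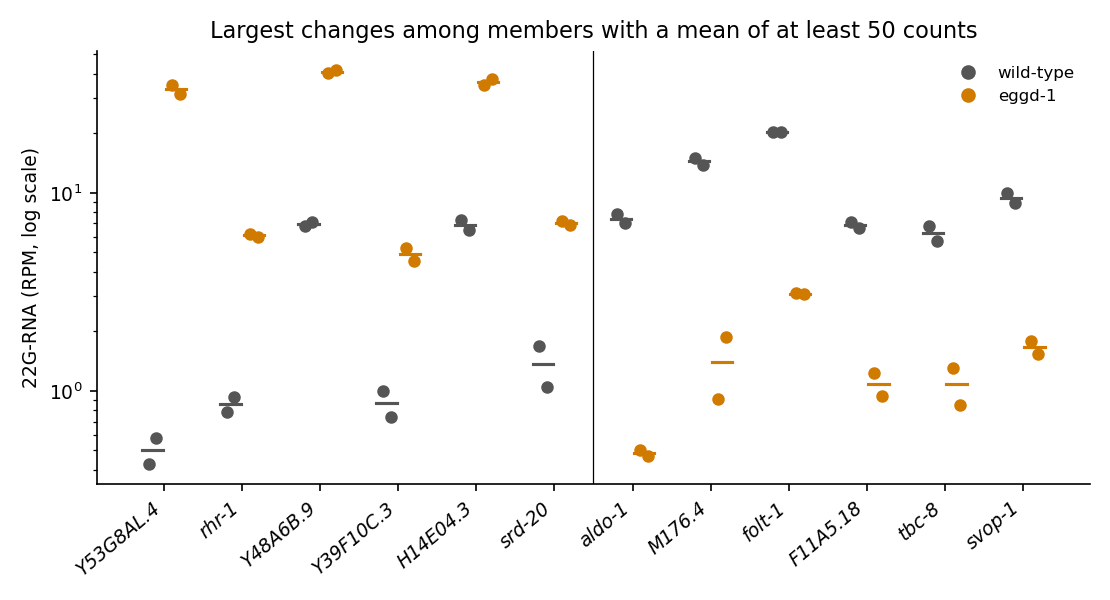
22G-RNA level in RPM (log scale) in each untreated library for the 6 genes with the largest increase (left) and the 6 with the largest decrease (right) among called members whose mean count was 50 or more; points are libraries and bars the mean of 2. At every gene both *eggd-1* points lie on the same side of both wild-type points, which the choice of the largest called changes favours. The replicates of a genotype lie farthest apart at M176.4 in *eggd-1*, at 0.914 and 1.88 RPM.

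By the role of the encoded protein, 126 of the 487 genes fell into 9 groups, of which 29 genes were higher and 18 lower at 2-fold. The 14 genes for transcription factors and chromatin proteins included 4 higher and 0 lower (0 at an unadjusted p below 0.05 and 2-fold, and 0 with TMM scaling or DESeq2), with a median log2 fold change of 0.34. A regulator of germ cell sex was among them. *fog-3*, which commits germ cells to the sperm fate, had 0 and 0.224 RPM (0 and 7 counts) in wild-type and 0.777 and 0.810 RPM (17 and 19 counts) in *eggd-1* (log2 fold change 2.71, standard error 0.554, adjusted p = 1.02e-04, edgeR). The call did not hold with DESeq2 (adjusted p = 0.161), and the log2 fold change was 1.80 without wild-type replicate 1 and 7.29 without wild-type replicate 2, where the 0 counts left in wild-type give no bound. *snpc-1.3*, the subunit of the snRNA activating complex that drives transcription of male piRNAs, went from 4.51 and 4.83 RPM to 11.5 and 10.6 RPM (log2 fold change 1.24, standard error 0.122, adjusted p = 2.95e-10). *mab-3*, a DM domain factor of male development, was at 0.461 and 0.432 RPM and at 0.845 and 0.831 RPM, a difference under 2-fold whose adjusted p of 0.0338 in edgeR became 0.108 to 0.152 when any of the 4 libraries was left out and 0.156 with DESeq2. The homeobox gene *ceh-48* and the histone demethylase gene *jmjd-1.1* were called higher (log2 fold changes of 2.60 and 1.94), with *ceh-48* at 3.62 without wild-type replicate 1 and 1.95 without wild-type replicate 2. The GATA factor gene *elt-1*, the nuclear receptor gene *daf-12* and the beta-catenin gene *bar-1* were not called, at log2 fold changes of -0.48, -0.61 and -0.14.

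Of 23 transporter genes, 6 were higher and 6 lower (26.1% each, beside 9.30% and 16.1% of all genes tested). The lower ones included, beside *folt-1* and *svop-1*, the vitamin transporter gene *smvt-1* (12.6 and 11 RPM against 2.65 and 3.07 RPM), the aquaglyceroporin gene *aqp-7*, the ABC transporter gene *mrp-6* and the cholesterol transport gene *ncr-1*, a homologue of the human Niemann-Pick C1 gene. *smvt-1*, *aqp-7*, *mrp-6* and *ncr-1* lie on the X chromosome, as do *dgn-1* and *gap-1* below. There 34.1% of all protein-coding genes tested were lower, and the part of the chromosome in these falls was not tested. The higher ones included, beside *rhr-1*, the nucleoside transporter gene *ent-3* (log2 fold change 2.14) and *osta-1* (1.52, and 2.26 without wild-type replicate 2), an organic solute transporter subunit. The calls at *mrp-6* (log2 fold change -1.48) and *ncr-1* (-1.03) were lost with DESeq2 (adjusted p = 0.125 and 0.248) and without *eggd-1* replicate 1 (adjusted p = 0.0512 and 0.155, edgeR), and that at *ncr-1* also without wild-type replicate 1 (0.0673). Relatives of called genes were not always called: *mrp-1* had a log2 fold change of 0.09 and *ent-2* of -0.41, neither past the test, and the differences from *mrp-6* and *ent-3* were not tested.

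Among 11 ion channel genes, 4 were lower (36.4%, against 16.1% of all genes tested) and 2 higher (18.2%, against 9.30%). With DESeq2, 2 were lower and 2 higher. The glutamate-gated chloride channel gene *avr-14* was at 2.48 and 1.82 RPM in wild-type against 0.320 and 0.256 RPM in *eggd-1* (log2 fold change -2.88, adjusted p = 2.2e-08, edgeR). Subunits of the levamisole-sensitive acetylcholine receptor of muscle had few reads. *unc-63* was called lower (1.06 and 0.448 RPM against 0.320 and 0.256 RPM), a call that was lost without wild-type replicate 1 (log2 fold change -0.63, adjusted p = 0.445, edgeR), without *eggd-1* replicate 2 (adjusted p = 0.0969) and with DESeq2 (0.197), and *unc-29* was not called (0.852 and 0.416 RPM against 0.320 and 0.597 RPM). *deg-3* and *des-2*, neighbours 112 bases apart on chromosome V that encode partner subunits of an acetylcholine receptor, had log2 fold changes of 0.59 and 1.32, of which only the second was called.

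Extracellular matrix and adhesion genes, 8 in all, included 3 lower (37.5%, against 16.1% of all genes tested) and 1 higher (12.5%, against 9.30%). *dgn-1*, the dystroglycan gene, was at 51.5 and 52.9 RPM in wild-type against 21.1 and 23.2 RPM in *eggd-1* (log2 fold change -1.24, standard error 0.0767, adjusted p = 5.18e-15, edgeR), with mutant libraries far below both controls. *cle-1*, which encodes the worm relative of collagen XVIII, had 24 and 28 counts in wild-type against 0 and 2 in *eggd-1*, a ratio of 19.8 with an exact 95% counting interval from 5.22 to 168. Its log2 fold change of -4.17, the lowest of the group, was -3.29 without *eggd-1* replicate 1 and -7.58 without *eggd-1* replicate 2, where the mutant counts left were 0 and give no bound. The perlecan gene *unc-52* was lower too (1.24 and 1.31 RPM against 0.366 and 0.512 RPM). *gon-1*, a secreted metalloprotease that shapes the gonad, was at 23.4 and 22.4 RPM and at 12.4 and 15.6 RPM, past the test but under 2-fold (log2 fold change -0.70, adjusted p = 1.65e-07, edgeR).

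Metabolic enzymes were the largest group. Of 28 genes, 9 were higher (32.1%, against 9.30% of all genes tested) and 2 lower (7.14%, against 16.1%). The higher genes were scarce in wild-type, among them the glutamine synthetase gene *gln-2* (0.106 and 0.224 RPM against 0.632 and 0.810 RPM), the cytochrome P450 gene *cyp-34A6* (0.284 and 0.640 RPM against 2.15 and 1.88 RPM) and the S-adenosylmethionine synthetase gene *sams-5*. Without wild-type replicate 2 the log2 fold change at *gln-2* went from 2.08 to 2.71 and at *cyp-34A6* from 2.08 to 2.80. The relative of *sams-5*, *sams-1*, had higher 22G-RNA levels, at 12.2 and 11.1 RPM in wild-type against 8.61 and 9.96 RPM in *eggd-1*, and was not called at 2-fold. Beside *aldo-1*, the glutathione S-transferase gene *gst-5* was lower (3.2 and 2.75 RPM against 0.914 and 0.853 RPM).

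The remaining groups held 7 to 14 genes each, and their counts stand beside 9.30% higher and 16.1% lower of all genes tested. Of 7 neprilysin genes, which encode zinc metallopeptidases that cleave small peptides and here all lie on chromosome II, *nep-6* and *nep-13* were higher (log2 fold changes of 2.05 and 1.39), *nep-18* was lower (-1.77) and 4 were not called. Of 14 signalling genes 2 were higher, the receptor guanylyl cyclase gene *gcy-12* and the G protein alpha subunit gene *gpa-15*, and 1 was lower, the Ras GTPase-activating protein gene *gap-1*, at 1.35 and 0.896 RPM in wild-type against 0.0914 and 0.256 RPM in *eggd-1*. Leaving out 1 library moved *gpa-15* from a log2 fold change of 1.63 to 2.32 (wild-type replicate 2) and *gap-1* from -2.63 to -3.54 (*eggd-1* replicate 2). Of 9 glycan enzyme genes 2 were higher, among them the fucosyltransferase gene *fut-1*, and 1 was lower. Of 12 cytoskeleton, motor and cilium genes, 1 was higher, the intraflagellar transport gene *che-13* (log2 fold change 1.29), and 0 were lower (0 at an unadjusted p below 0.05 and 2-fold in edgeR, 0 with DESeq2). The *che-13* call was lost with DESeq2 (adjusted p = 0.0747) and, in edgeR, without wild-type replicate 1 (0.0603) or *eggd-1* replicate 2 (0.180). The dynein heavy chain gene *dhc-4* was at 3.66 and 3.52 RPM and at 4.71 and 5.2 RPM, under 2-fold, and the tubulin gene *tba-4* was at 0.710 and 0.688 RPM and at 0.503 and 0.469 RPM and not called. Outside these groups, the ribosomal protein gene *rpl-42* was higher (5.09 and 4.87 RPM against 13.9 and 12 RPM), *rpl-39* was lower (1.85 and 1.92 RPM against 0.731 and 0.895 RPM), and *wago-5*, which encodes an Argonaute protein itself, was not called (1.44 and 1.12 RPM against 1.33 and 1.32 RPM).

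**Figure D3:**
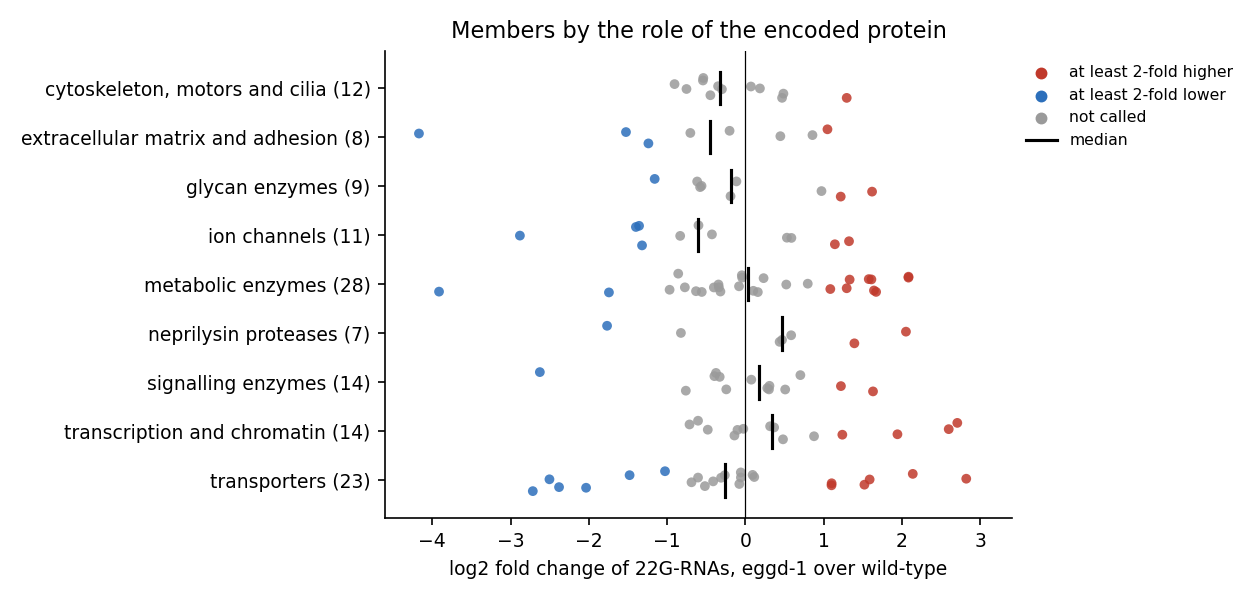
log2 fold change of 22G-RNAs in *eggd-1* over wild-type (x axis) for the 126 members assigned to 9 role groups (rows, with the number of genes); points are genes, coloured by their call at 2-fold, and bars mark the median. Transporters include 6 higher and 6 lower genes, and transcription and chromatin genes 4 higher and 0 lower. Over all genes tested, 9.30% were higher and 16.1% lower, and differences between the groups were not tested.

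Genes known only by a sequence name made up 267 of the 487, and 110 of the 265 tested (41.5%) were called higher, with 34 lower and a median log2 fold change of 0.61. Of the 219 tested genes with a gene name, 48 (21.9%) were higher and 36 (16.4%) lower. Their median of -0.04 became 0.10 with TMM scaling and 0.14 with DESeq2, so its direction depended on the scaling. The same was true of the glycan enzymes, whose median of -0.19 became -0.05 and 0.01. Over all genes tested, 9.30% were higher and 16.1% lower, but these were not split by kind of name. Nothing particular to the members is therefore read from the shares of 41.5% and 21.9%.

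Set beside other genes, the members lay between spermatogenic genes of the ALG-3/4 class and all genes. In the ALG-3/4 class, 311 of 577 tested spermatogenic genes (53.9%) were at least 2-fold higher and 24 (4.16%) lower, with a median log2 fold change of 1.09. Of 614 oogenic genes outside the same 6 classes, 8 (1.3%) were higher and 133 (21.7%) lower, with a median of -0.38. Of 1358 protein-coding genes with no class at all, 110 (8.10%) were higher and 428 (31.5%) lower, with a median of -0.50. The order of these medians was the same with TMM scaling (1.23, 0.45, -0.23 and -0.35 for the ALG-3/4 class, the members, the oogenic genes and those with no class) and with DESeq2 (1.28, 0.49, -0.21 and -0.33). The members' quartiles of -0.54 and 1.24 lay farther apart than those of the ALG-3/4 class (0.30 and 1.63), and no bin of 0.25 on the log2 scale held more than 8.06% of them. That share was reached both between -0.50 and -0.25 and between 1.00 and 1.25. The lists were not built alike. The ALG-3/4 list kept the large gene families and genes that also carry other Argonaute classes, both of which the members exclude. The oogenic and no-class lists left out the same families as the members. The ALG-3/4 list and the members therefore differ in more than that class. These values are descriptions of the lists, and no test was made between them.

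**Figure D4:**
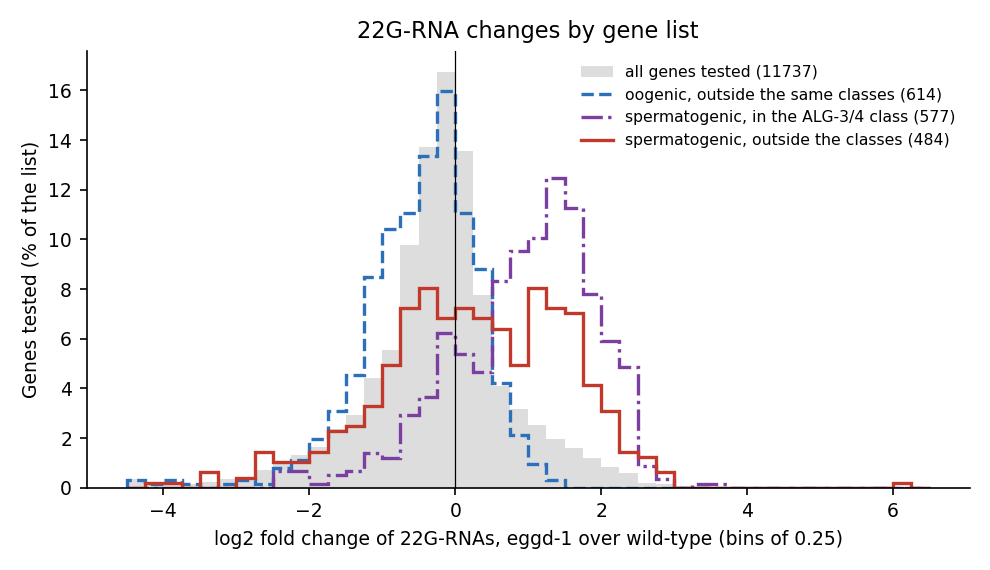
Distribution of the log2 fold change of 22G-RNAs in *eggd-1* over wild-type (x axis, bins of 0.25) as the percentage of each list (y axis), for the 484 tested members, 577 spermatogenic genes in the ALG-3/4 class, 614 oogenic genes and all 11737 genes tested. The members have a broad distribution that reaches 8.06% both between -0.50 and -0.25 and between 1.00 and 1.25, while the ALG-3/4 class has most of its genes above 0.5. The ALG-3/4 list keeps large gene families that the member and oogenic lists leave out.

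The chromosomes differed in the direction of change. The 41 members on the X chromosome (8.42% of the group, against 10.4% of protein-coding genes tested) included 0 higher and 14 lower (34.1%). At an unadjusted p below 0.05 edgeR gave 0 higher at 2-fold and 2 at any fold, and TMM scaling and DESeq2 gave 1 higher each and 11 and 7 lower. Their summed 22G-RNAs were at 135 and 132 RPM in wild-type against 74.9 and 76.3 RPM in *eggd-1*, which gives 0.567 ± 0.0136 of wild-type (SD, n = 2), with the median log2 fold change at -0.55. *dgn-1* alone held a large part of this sum and of its fall, and 22 of the 41 genes did not pass an adjusted p of 0.05 (edgeR). Of all protein-coding genes tested on the X chromosome, 1.27% were higher and 34.1% lower, with a median of -0.62. With TMM scaling and DESeq2, 28.2% and 22.1% of all these genes were lower, against 26.8% and 17.1% of the members, and the difference between members and other genes was not tested. *gap-1*, *aqp-7*, *smvt-1*, *mrp-6*, *dgn-1* and *ncr-1* belong to the 14. Of the 443 tested members on the autosomes, 158 were higher and 56 lower, and their sum went from 1600 and 1516 RPM to 2086 and 2011 RPM. The share of higher calls ran from 28.4% on chromosome I and 30.0% on III to 36.3% on II, 39.3% on IV and 41.3% on V, where 7.91% to 13.9% of all protein-coding genes tested were higher. Lower calls took from 10.2% (I) to 16.7% (III) of the members on the autosomes, where 11.2% to 18.4% of all protein-coding genes tested were lower.

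**Figure D5:**
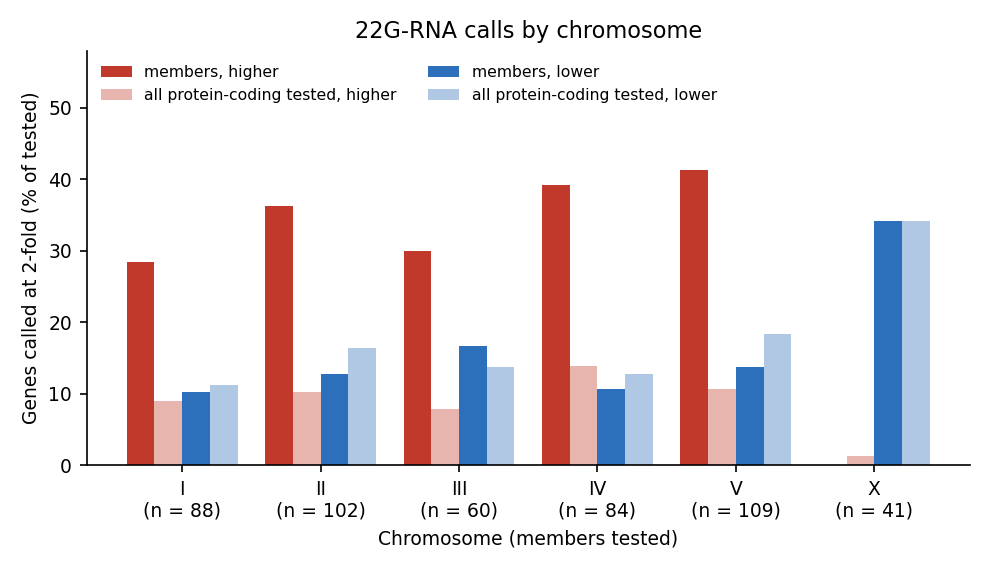
Percentage of tested genes called at least 2-fold higher (red) or lower (blue) in *eggd-1* (y axis) on each chromosome (x axis, with the number of members tested); dark bars are the members and pale bars all protein-coding genes tested. On the autosomes the dark red bars exceed the pale ones, and on the X chromosome 0 members and 1.27% of all protein-coding genes are higher, and 34.1% of each are lower.

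Neighbouring members did not always move together. Of 18 pairs within 2000 bases of each other or overlapping, 4 had both genes higher, 0 had both lower, and 1 had opposite calls. Of all tested members 32.6% were higher and 14.5% lower, and neighbouring pairs among all genes were not counted. Nothing particular to neighbours is therefore read from these counts. In the pair with opposite calls, on chromosome II and chosen after its values were seen, Y39F10C.3 rose (log2 fold change 2.50) while Y39F10C.1, 666 bases away, fell by 3.34.

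The way the reads were counted could bear on some of these genes. Reads that map to several places or features were divided between them, and 333 of the 487 members had whole counts in every untreated library. Exons of 104 members overlap a gene on the opposite strand and those of 20 a gene on the same strand. Among the 104, 26 were higher and 12 lower. Among the 243 tested members with whole counts and no overlap, 72 were higher and 43 lower, with a median log2 fold change of 0.25. Over all tested members 32.6% were higher and 14.5% lower, with a median of 0.30. The shares over all genes within these limits were not computed, so nothing about overlap is read from these counts. No members had identical counts in every library.

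Counts of 26G-RNAs were not used to choose the genes, but the rule left out the ALG-3/4 class, whose Argonautes bind 26G-RNAs. Few 26G-RNAs on the members are therefore favoured by the selection. 26G-RNAs were sparse on them: 221 members had none and 266 had a count. Their sum was 18.1 and 20.3 RPM in wild-type against 72.2 and 68.2 RPM in *eggd-1*. Both mutant libraries lay far above the controls, with a fold change of 3.66 ± 0.330 (SD, n = 2), beside 3.30 ± 0.332 for the 26G-RNAs of the ALG-3/4 class. Without the 3 members with most 26G-RNAs it was 3.56 ± 0.432. Only 29 members could be tested, of which 25 (86.2%) were at least 2-fold higher and 0 lower (0 at an unadjusted p below 0.05), while 80.8% of all 875 genes tested were higher and 1.49% lower. The members' median log2 fold change was 1.99 and that of all genes tested 1.94, with the members close to the class as a whole. Only 6 of the 29 reached the level of the filter, 0.387 RPM, in both wild-type libraries, and the others passed through *eggd-1*. TMM scaling and DESeq2 set the median of the class itself close to 0 (0.11 and 0.08), and then gave 0 members higher (2 and 0 at an unadjusted p below 0.05 and 2-fold) and 4 and 3 lower.

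The 5 members with most 26G-RNAs were F57B9.8, C01G10.14, *melo-3*, F47D12.7 and T16A1.2. F57B9.8 had 26G-RNAs at 2.27 and 1.57 RPM in wild-type against 6.63 and 8.49 RPM in *eggd-1* (log2 fold change 1.99, standard error 0.201, adjusted p = 3.6e-06, quasi-likelihood test of edgeR, Benjamini-Hochberg). C01G10.14, at 1.26 and 1.78 RPM and then 6.03 and 6.03 RPM, and *melo-3*, at 1.26 and 1.74 RPM and then 6.08 and 5.74 RPM, had almost the same values. Neither had whole counts of 22G-RNAs, so reads shared between them could be split by the counting. T16A1.2 went from 0.248 and 0.272 RPM to 1.67 and 1.75 RPM, and F47D12.7 from 0.408 and 0.608 RPM to 1.80 and 1.32 RPM. All 5 had higher 22G-RNAs as well, from 2.04-fold at F47D12.7 to 5.99-fold at T16A1.2, though at F57B9.8, C01G10.14, *melo-3* and F47D12.7 these rested on few reads, and the adjusted p exceeded 0.05 with DESeq2 and, in edgeR, without at least 1 of the libraries (0.0501 to 0.169). Of the 25 members called higher for 26G-RNAs, 21 (84.0%) were also called higher for 22G-RNAs, 0 lower and 4 neither. Of all 562 genes called higher for 26G-RNAs and tested for 22G-RNAs, 53.4% were called higher for both, and most of the 29 members entered the 26G-RNA test through *eggd-1*, so nothing particular to the members is read from this count. The glycolipid synthesis gene *bre-3* was 1 of the 4, with 26G-RNAs at 0.142 and 0.288 RPM and then 1.55 and 0.938 RPM, and 22G-RNAs at 7.15 and 6.91 RPM and then 4.68 and 4.52 RPM.

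The oxidized libraries had no part in choosing or calling the genes, and each genotype has a single one, so no difference between them was tested. The members' 22G-RNAs summed to 55.6 RPM in oxidized wild-type and 59.4 RPM in oxidized *eggd-1*, 30.4-fold and 35.7-fold below the untreated means, where the 22G-RNAs of all genes were 37.3-fold and 36.1-fold below. The genes called higher in the untreated libraries were at 6.34 RPM in oxidized wild-type (172 counts, exact 95% Poisson interval 5.43 to 7.37 RPM) and 17.3 RPM in oxidized *eggd-1* (336 counts, 15.5 to 19.2 RPM). The genes called lower were at 15.2 RPM (412 counts, 13.8 to 16.7 RPM) and 3.49 RPM (68 counts, 2.71 to 4.43 RPM). These intervals cover counting error only. Both groups thus stood in the same order as in the untreated libraries, although the oxidized wild-type library is from N2. The genes with no call were at 34 RPM (31.9 to 36.3 RPM) and 38.6 RPM (35.9 to 41.5 RPM), with overlapping intervals. Gene by gene, 74 of the genes called higher had a read in at least 1 oxidized library, and 53 of them were above in *eggd-1*. Of 42 such genes called lower, 39 were below, and of 145 with no call or not tested, 78 were above and 67 below. Over all genes tested, 78.8% of those called higher, 53.2% of those with no call and 21.3% of those called lower were above. H14E04.3 was at 0.111 RPM in oxidized wild-type and 2.06 RPM in oxidized *eggd-1*, Y53G8AL.4 at 0 and 1.49 RPM, and *folt-1* at 0.812 and 0 RPM.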

How the data were processed

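Deposited tables of 6 small RNA libraries were used, with samples grouped by genotype and treatment from their labels. Per the methods of the study, the authors trimmed reads with TrimGalore, removed structural RNA, aligned the rest to WormBase WS279 with Bowtie without mismatches, and counted antisense 22G-RNA reads per gene, dividing each read by its locations and overlapping features. The rule for counting 26G-RNAs is not given in the sources used here. The deposited expected counts are therefore partly fractional. The authors also deposited RPM, scaled to genome-mapped reads, and dividing counts by RPM gave those totals for each library. A gene with no entry was taken as 0. Each genotype had 2 biological replicates.

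Expected counts were rounded and fitted over all 22G-RNA genes, and separately all 26G-RNA genes, by the quasi-likelihood method of edgeR 4.0.16 under R 4.3.3, with genome-mapped reads as library size, no further scaling and filterByExpr at a minimum count of 10. p-values were adjusted by Benjamini-Hochberg over all genes tested. Each standard error given is the absolute log2 fold change divided by the square root of the F statistic of that test. It is not a spread between the replicates. For a single value, 2 libraries per genotype could not give an exact permutation p below 0.33, so sums are given with their SD only. Alternatives were TMM scaling, DESeq2 1.42.0, other library sizes and filters, a replicate block, protein-coding genes alone and leaving out each library. Oxidized libraries entered no fit. Intervals used scipy 1.17.1 (Python 3.11.15).

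The members and lists were chosen with earlier results of these data known. Named are the 6 most abundant members, the 6 largest called changes in each direction with a mean of at least 50 counts, the 5 with most 26G-RNAs, those at the count limit, and genes of known role. Role groups were made from gene names. Coordinates, exons and overlaps refer to WBcel235, the WS279 assembly, as annotated in release 115 of Ensembl. No sequences are shown, and the mRNA sequencing was not analysed here.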

Additional observations from a re-analysis of the deposited data

How the results depend on the processing

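Between 6 and 13 alternatives were run for each summary of the members, and each gene named with a test was refitted under 7. Requiring a mean of 50 counts left 49 higher and 25 lower members at 2-fold, 10 and 13 at 4-fold, and 3 higher for 26G-RNAs, because fewer genes were tested. DESeq2 gave 46 lower at 2-fold, and at 4-fold 44 higher and 19 lower, beside 43 and 19 with TMM scaling. The median log2 fold change of the members moved to 0.45 with TMM scaling, 0.49 with DESeq2, and 0.21 when membership required a mean of 50 counts. For 26G-RNAs, TMM scaling gave 0 higher and 4 lower, DESeq2 0 higher and 3 lower, and no filter 50 higher. Both scalings reversed the 26G-RNA difference at F47D12.7, to -0.28 (TMM) and -0.28 (DESeq2), without a call. Chosen after seeing the data, members with whole counts and no exon overlap gave 72 higher and 43 lower, and members with at least 10 counts in each genotype 109 higher and 42 lower. With each library left out in turn, so that the lone library of a genotype was assumed to vary like the others, 132 to 147 members were higher and 62 to 64 lower at 2-fold, 27 to 43 and 22 to 28 at 4-fold, the median ranged from 0.28 to 0.35, the fold change of the sum from 1.22 to 1.29, and 22 to 25 members were higher and 0 lower for 26G-RNAs. The total over all features as library size and protein-coding genes alone left every count within 1.5 times. Of 504 refits of single genes, 378 were of values called at 2-fold, of which 37 lost the call, and 1 refit gained one (*mab-3* with TMM scaling). The adjusted p rose to 0.05 or above in 49 refits and fell below it in 3, all at *deg-3*, which stayed under 2-fold. The sign changed in 8 refits, the 2 at F47D12.7 and 6 at *bar-1*, *mrp-1*, *unc-29* and *wago-5*, where neither fit passed the test. Mean counts were under 100 at 412 members.

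The replicate numbers could not be shown to pair the libraries: deviations of same-numbered libraries correlated at 0.0776 over 8248 genes, and there are only 2 pairs. A fit with the replicate block gave 160 higher and 70 lower members at 2-fold, 31 and 23 at 4-fold, and 25 higher for 26G-RNAs. At *deg-3* the adjusted p was 0.0405 with it and 0.0517 without it (edgeR), at a change under 2-fold, and no other gene refitted crossed 0.05.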
